A study of Homo sapiens with 6 samples.

Results

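The transcripts of 8 chromatin regulator genes that are widely studied as autism and neurodevelopmental risk genes, CHD8, ADNP, ARID1B, ASH1L, POGZ, CREBBP, EP300 and ANKRD11, were examined for binding by the fragile X family of RNA-binding proteins. A binding site was assigned to a gene when its midpoint lay within the gene's hg19 span on the gene's strand. The 8 genes held 2370 of the 464799 sites in the 6 deposited site lists. All 8 genes had at least 1 site in every list.

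The fragile X protein FMR1 (FMRP) and its paralogs FXR1 and FXR2 bind messenger RNA through KH and RGG domains and associate with polyribosomes, where FMR1 is known as a repressor of translation. Loss of FMR1 causes fragile X syndrome, a common inherited form of intellectual disability that often includes autism. Long brain messenger RNAs, those of chromatin regulators among them, are known from earlier work as a large class of FMR1 targets, and loss of 1 working copy of several of the genes described here causes a developmental disorder (CREBBP and EP300 in Rubinstein-Taybi syndrome, ARID1B in Coffin-Siris syndrome, ANKRD11 in KBG syndrome).

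The sites came from PAR-CLIP, in which cells take up 4-thiouridine (4SU), bound RNA is crosslinked to protein by UV light, and the protein is immunoprecipitated with the RNA fragment it holds. All 6 libraries were made from FlpIn T-REx HEK293 cells, an established human embryonic kidney line, each carrying a stable transgene for a FLAG-HA tagged protein that was induced with doxycycline for 16 h alongside 4SU. The immunoprecipitated proteins were wild-type FMR1 isoform 1, wild-type FMR1 isoform 7, the I304N mutant of isoform 1, the I304N mutant of isoform 7, FXR1 and FXR2, with 1 library for each protein. I304N is a missense change in a KH domain, found in a patient with a severe form of fragile X syndrome and known to impair RNA binding and polyribosome association.

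Wild-type FMR1 gave 121903 sites as isoform 1 and 78495 as isoform 7, I304N gave 132219 and 88644, FXR1 gave 9017 and FXR2 gave 34521. The files give sites and not reads, so read depth is unknown, and sites were scaled to 100000 sites of their list. No group had a second library, so no comparison has a replicate check and all 95% intervals cover counting error only. The lists hold no RNA levels, so more binding and more of a transcript cannot be told apart, and the identity of the cells was not tested.

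The 8 genes took a small share of each list, and that share was highest for wild-type isoform 7. With wild-type FMR1 they held 559 sites as isoform 1 (0.459%) and 499 as isoform 7 (0.636%), with I304N 644 (0.487%) and 441 (0.497%), with FXR1 37 (0.410%) and with FXR2 190 (0.550%). Gene by gene values below follow this order of libraries. Sites on the opposite strand of the same spans numbered 3 in all, 1 each in ADNP, ARID1B and ANKRD11, against 2370 on the gene's strand. Of the 2370 sites, 11 carried the authors' repeat flag, and 5 of those were in POGZ. In the 4 FMR1 libraries the flagged share was 0.179% to 0.802% within the genes and 3.04% to 5.38% over the rest of each list.

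**Figure D1:**
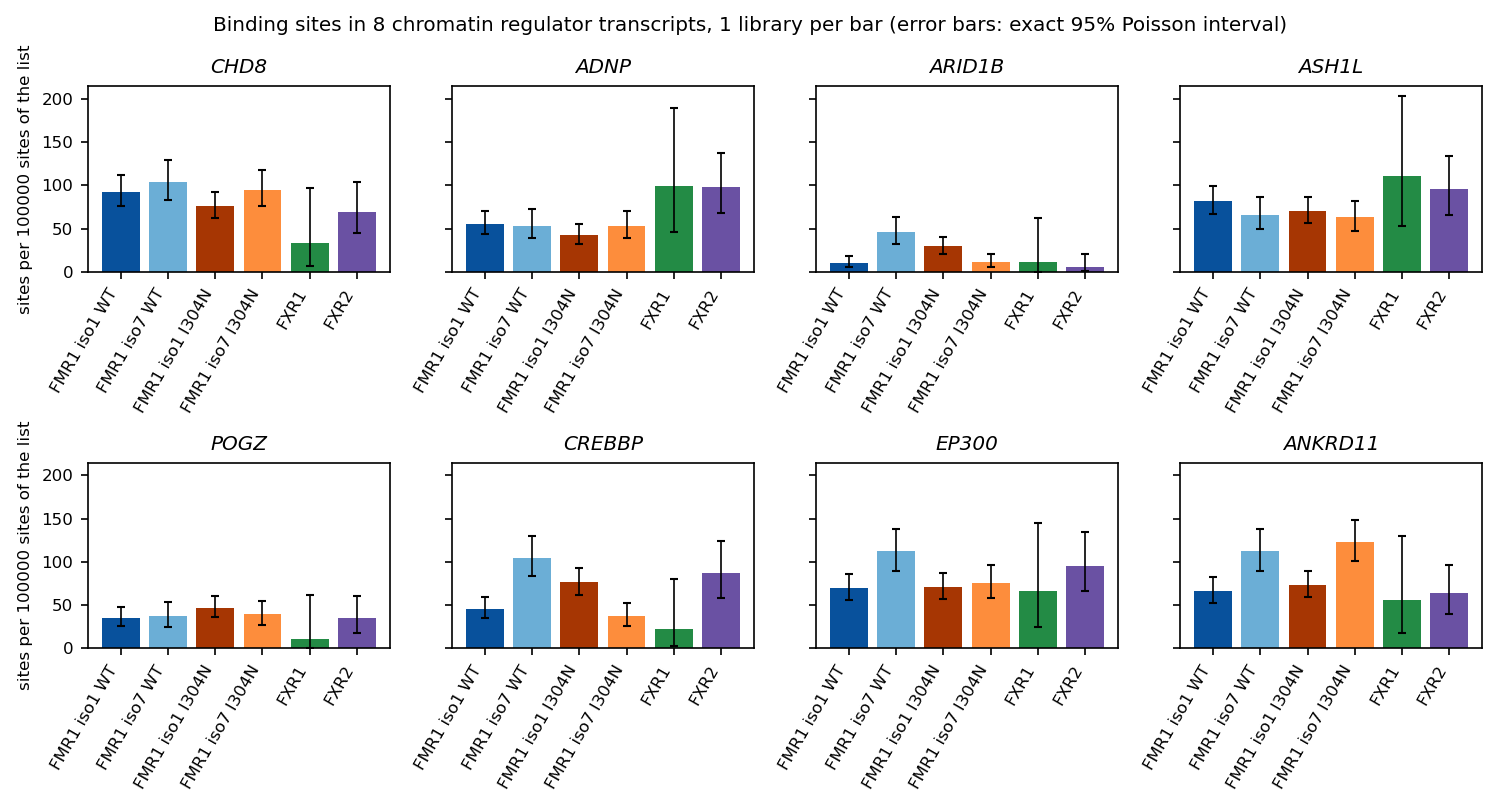
Sites per 100000 sites of the list (vertical axis) in each of the 8 genes, with 1 bar for each of the 6 libraries and exact 95% Poisson intervals as error bars. ARID1B and CREBBP bars are tall for wild-type isoform 7 and I304N isoform 1 and short for wild-type isoform 1 and I304N isoform 7, while CHD8 changes little over the 4 FMR1 libraries.

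CHD8 is an ATP-dependent chromatin remodeller of the CHD family and ARID1B is a DNA-binding subunit of the BAF (SWI/SNF) remodelling complex. CHD8 (chromosome 14, 21853353 to 21905457, minus strand) had 113 (isoform 1) and 82 (isoform 7) sites with wild-type FMR1, 101 and 84 with I304N, 3 with FXR1 and 24 with FXR2. Scaled, these were 92.7, 104, 76.4, 94.8, 33.3 and 69.5 sites per 100000. The 4 FMR1 values of CHD8 lay close together with intervals that overlap, and the FXR1 value was the lowest, resting on 3 sites. ARID1B (chromosome 6, 157099064 to 157531913, plus strand) had 13, 36, 39, 10, 1 and 2 sites in the same order of libraries, or 10.7, 45.9, 29.5, 11.3, 11.1 and 5.79 per 100000. Wild-type isoform 7 and I304N isoform 1 stood above wild-type isoform 1 and I304N isoform 7 without overlap of their intervals.

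CREBBP and EP300 are paralogous lysine acetyltransferases that acetylate histones at enhancers and promoters. CREBBP (chromosome 16, 3775056 to 3930121, minus strand) had 56 (isoform 1) and 82 (isoform 7) sites with wild-type FMR1, 101 and 33 with I304N, 2 with FXR1 and 30 with FXR2. The scaled values were 45.9, 104, 76.4, 37.2, 22.2 and 86.9 per 100000. CREBBP therefore had the same high and low FMR1 libraries as ARID1B. EP300 (chromosome 22, 41488614 to 41576081, plus strand) had 85, 88, 94, 67, 6 and 33 sites in that order, or 69.7, 112, 71.1, 75.6, 66.5 and 95.6 per 100000. Wild-type isoform 7 was the highest EP300 value, and its interval of 89.9 to 138 per 100000 lay above those of both isoform 1 libraries but met those of I304N isoform 7 (58.6 to 96.0) and the FXR proteins.

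ASH1L is a histone methyltransferase that acts on histone H3. It (chromosome 1, 155305052 to 155532324, minus strand) had 100 (isoform 1) and 52 (isoform 7) sites with wild-type FMR1, 93 and 56 with I304N, 10 with FXR1 and 33 with FXR2. On the scale of 100000 sites, ASH1L values were 82.0, 66.2, 70.3, 63.2, 111 and 95.6. Its FXR values were the highest, but every pair of its intervals overlapped.

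ADNP is a homeodomain and zinc finger protein that works with a CHD-family remodeller and heterochromatin protein, and POGZ is a zinc finger protein with a transposase-derived domain that binds heterochromatin protein. ADNP (chromosome 20, 49505455 to 49547527, minus strand) had 68 (isoform 1) and 42 (isoform 7) sites with wild-type FMR1, 57 and 47 with I304N, 9 with FXR1 and 34 with FXR2, or 55.8, 53.5, 43.1, 53.0, 99.8 and 98.5 per 100000. ADNP was thus highest in both FXR libraries, but its FXR1 interval (45.6 to 189 per 100000) met those of all 4 FMR1 libraries. Among the FMR1 intervals, only that of I304N isoform 1 (32.7 to 55.9) lay below the FXR2 interval (68.2 to 138). POGZ (chromosome 1, 151375200 to 151431941, minus strand) had 43, 29, 62, 35, 1 and 12 sites in the same order, or 35.3, 36.9, 46.9, 39.5, 11.1 and 34.8 per 100000. The FMR1 values of POGZ did not differ beyond their counting intervals, and its FXR1 value rests on 1 site.

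ANKRD11 is a large ankyrin-repeat protein that binds nuclear receptor coactivators and histone deacetylases. It (chromosome 16, 89334035 to 89556969, minus strand) had 81 (isoform 1) and 88 (isoform 7) sites with wild-type FMR1, 97 and 109 with I304N, 5 with FXR1 and 22 with FXR2. ANKRD11 reached 66.4, 112, 73.4, 123, 55.5 and 63.7 per 100000, so that both isoform 7 libraries were above both isoform 1 libraries without overlap of their intervals.

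To compare genes, scaled counts were divided by the length of each gene's longest protein-coding transcript, which ranged from 6626 nt for POGZ to 11942 nt for ASH1L in GENCODE release 29. CHD8 had the highest density in wild-type isoform 1 (10.9 sites per 100000 per kb of mRNA), wild-type isoform 7 (12.3) and I304N isoform 1 (9.02). ANKRD11 was highest in I304N isoform 7 (13.2), followed by CHD8 (11.2). ADNP was highest in FXR1 (13.6) and FXR2 (13.4). EP300 ranked 2 or 3 in every library, with 6.94 to 11.7. ARID1B was lowest in all 6 libraries, with 0.536 to 4.24. Of the 42 pairs of genes adjacent in these orders, 38 had overlapping intervals, and in each of the 4 pairs that did not, ARID1B was the lower gene.

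CHD8 was also dense against the genome in the FMR1 libraries. In 50 kb strand-specific windows, the window holding most of CHD8 contained 114 sites of wild-type isoform 1, and only 28 of the 11524 windows with a site in that library held as many or more, itself included. For wild-type isoform 7 that number was 27 of 15848, for I304N isoform 1 it was 24 of 15044 and for I304N isoform 7 it was 35 of 11262. In FXR2 it was 184 of 7976, and in FXR1, where the window held 3 sites, it was 836 of 3806. CHD8 led the members in all 4 FMR1 libraries, where the next lowest numbers included 120 for EP300 (wild-type isoform 7). In FXR2 ADNP was denser (92), and in FXR1 so were ADNP (184), ASH1L (463), EP300 and ANKRD11 (592 each). The CHD8 span lay mostly in 1 window, while longer spans were cut between windows, so the genes were not compared evenly.

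Across the 6 libraries, ADNP and ASH1L had the most similar profiles of scaled counts (Pearson r = 0.94 between log2 values centred in each library, n = 6 libraries), followed by ADNP and EP300 (r = 0.81) and CHD8 and POGZ (r = 0.79). The paralogs CREBBP and EP300 were not alike (r = -0.17), and POGZ and EP300 had the lowest value (r = -0.71). These values are descriptions over 6 libraries that differ in depth, and 1 of the 6 points, FXR1, rests on 1 to 10 sites per gene. Centring within a library also makes the genes' values depend on each other.

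Within the spans, sites were gathered in few places. In ADNP, 12 of 43 bins of 1 kb held any site, and in ARID1B 31 of 433 did. The 5 densest bins held 84.0% of the ADNP sites and 60.4% of the ANKRD11 sites, but 38.1% of the EP300 sites and 42.1% of the CREBBP sites. The longest stretch of adjacent 1 kb bins with at least 10 sites each, summed over the libraries, is called the main run below, and it was chosen after its values were seen.

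**Figure D2:**
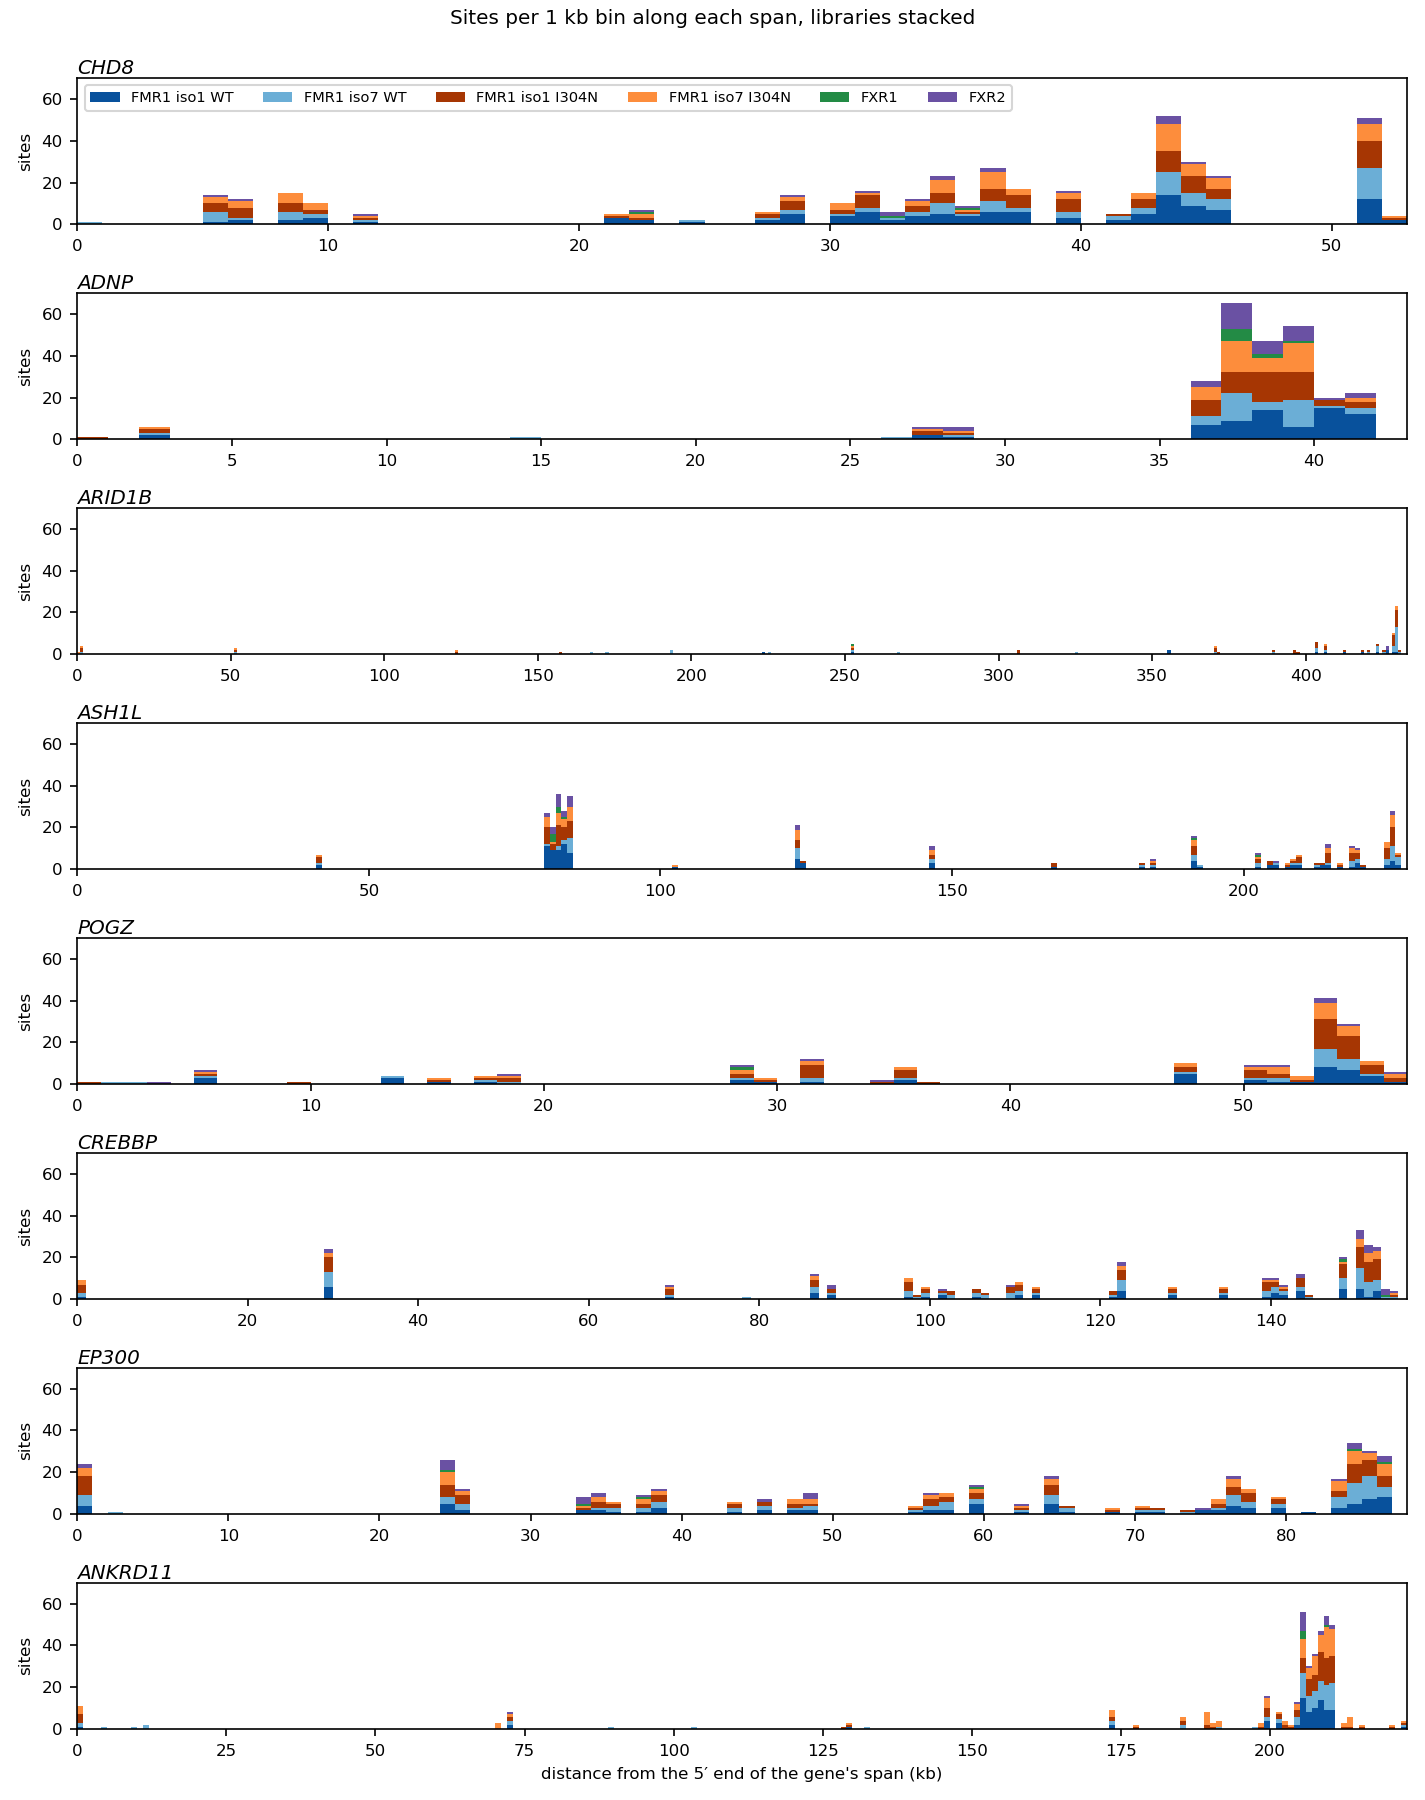
Number of sites in each 1 kb bin (vertical axis) against distance in kb from the 5′ end of each gene's span (horizontal axis), with the 6 libraries stacked. ADNP and ANKRD11 sites pile up in a single run near the 3′ end of the span, ASH1L has its tallest run near 80 kb of 227 kb, and CHD8 and EP300 sites are spread over many bins.

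ANKRD11 and ADNP had the longest runs. In ANKRD11 the main run covered 7 kb (chromosome 16, 89345970 to 89352969) and held 286 of 402 sites (71.1%). In ADNP it covered 6 kb (chromosome 20, 49505528 to 49511527) and held 236 of 257 sites (91.8%). The densest 1 kb bin of any member was in this ADNP run (49509528 to 49510527), with 9, 13, 10 and 15 sites in the FMR1 libraries in the order above, 6 in FXR1 and 12 in FXR2. The ASH1L main run covered 5 kb (chromosome 1, 155447325 to 155452324) and held 146 of 344 sites (42.4%). It lay 80 to 85 kb from the 5′ end of a 227 kb span, whereas the other 7 main runs lay towards the 3′ ends of their spans.

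The remaining genes had shorter or less dominant runs. CHD8 had 120 of 407 sites (29.5%) in 4 kb of chromosome 14 (21859458 to 21863457), and its second-densest bin, with 51 sites, was close to the 3′ end (21853458 to 21854457). EP300 had 109 of 373 sites (29.2%) in 4 kb of chromosome 22 (41571614 to 41575613). CREBBP had 84 sites (27.6% of its total) in 3 kb of chromosome 16 (3777122 to 3780121). POGZ had 81 of 182 sites (44.5%) in 3 kb of chromosome 1 (151375942 to 151378941), and ARID1B had 33 of 101 (32.7%) in 2 kb of chromosome 6 (157527064 to 157529063).

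All of these genes but CHD8 have a longest exon above the median of protein-coding genes, a feature that did not enter their choice. The longest exon of the longest protein-coding transcript measured 6578 nt in ANKRD11, 5597 nt in ADNP, 4821 nt in CREBBP, 4613 nt in ARID1B, 4564 nt in ASH1L, 3741 nt in POGZ and 3307 nt in EP300 (GENCODE release 29), against a median of 1643 nt over 18032 protein-coding genes. In CHD8 the longest exon measured 1058 nt, longer than in 32.3% of genes. For the other members that share ran from 78.7% (EP300) to 95.5% (ANKRD11). The genes compared were not matched for transcript length. In ANKRD11 and ASH1L the longest exon was internal and wholly coding (exon 9 of 13 and exon 3 of 28), and in ADNP it was the last of 3 exons and held 3105 coding nt. The main runs of ANKRD11 (7 kb), ADNP (6 kb), ASH1L (5 kb), POGZ (3 kb) and EP300 (4 kb) were within the bin size of 1 kb of the lengths of their longest exons. Those of ARID1B (2 kb) and CREBBP (3 kb) were shorter than the longest exon, and that of CHD8 (4 kb) was longer. Run lengths are whole kb and depend on the threshold of 10 pooled sites, so a like length does not place a run in an exon. Positions were not compared, because the annotation used was for GRCh38 and the sites are in hg19 coordinates.

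The first comparison set I304N against wild type in isoform 1. ARID1B was higher with I304N, with 39 against 13 sites and a ratio of scaled counts of 2.77 (95% interval 1.45 to 5.65). CREBBP was also higher, with 101 against 56 sites and a ratio of 1.66 (1.19 to 2.35). The intervals of the other 6 ratios held 1, from 0.773 (0.534 to 1.12) for ADNP to 1.33 (0.887 to 2.01) for POGZ. The 8 genes together had a ratio of 1.06 (0.947 to 1.19). At a 2-fold threshold, with a pseudocount of 1 on scaled counts, 1 of 8 genes was higher (ARID1B) and 0 were lower. Among 50 kb windows with a mean of at least 2 scaled sites, 29.9% were higher and 20.4% lower, and among denser windows, with a mean of at least 20, 11.1% were higher and 27% lower. Genes were counted over their whole spans (42.1 to 433 kb), so here and below the windows are not units like the genes. ARID1B itself was sparser than these denser windows, since its densest 50 kb window held 9 sites of wild-type isoform 1 and 24 of I304N isoform 1. The median log2 ratio was 0.08 for the members, 0.12 for all 7869 windows and -0.38 for the 1320 denser windows. Scaling by the median ratio over windows moved all log2 ratios by 0.64, and the ratios of all 8 genes were then above 1, so the directions of CHD8, ADNP and ASH1L, which were below 1, turned.

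In isoform 7, I304N went with fewer sites in ARID1B and CREBBP. ARID1B had 10 against 36 sites, a ratio of 0.246 (0.109 to 0.506), and CREBBP had 33 against 82, a ratio of 0.356 (0.230 to 0.540). EP300 was lower by less, with 67 against 88 sites and a ratio of 0.674 (0.483 to 0.937). The other 5 intervals held 1, with ratios between 0.907 for CHD8 and 1.10 for ANKRD11, and the 8 genes together had a ratio of 0.783 (0.687 to 0.891). By the 2-fold threshold 2 of 8 genes were lower and 0 higher, where 20.1% of the windows were lower and 21.4% higher. Of the denser windows 7.95% were lower and 17.4% higher. The members' median log2 ratio was -0.10, beside 0.04 over 7513 windows and 0.17 over 1232 denser ones. Median-ratio scaling, a shift of 0.30, brought the ratio of the 8 genes to 0.963 and left ARID1B (log2 -1.67) and CREBBP (log2 -1.18) below 1. Under it CHD8, ADNP and ASH1L, whose intervals held 1, moved from below 1 to above it, and EP300, POGZ and ANKRD11 kept their side.

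The ratios of I304N to wild type for ARID1B and CREBBP thus lay on opposite sides of 1 in the isoforms, with 1 library for each protein. Differences between libraries of the same kind were not tested. The ratio in isoform 7 divided by that in isoform 1 was 0.0889 (0.0347 to 0.228) for ARID1B and 0.214 (0.127 to 0.360) for CREBBP, by a normal approximation chosen after the pattern was seen. It was 0.661 (0.429 to 1.02) for EP300, and the intervals of the other 5 genes also held 1, with values from 0.804 for POGZ to 1.28 for ADNP. Of 7993 windows, 3.45% were at least 2-fold higher with I304N in isoform 1 and at least 2-fold lower in isoform 7, and 1.2% showed the reverse. Among 1248 denser windows these shares were 0.481% (6 windows) and 0.641%, and ARID1B would not be among such windows. By the same threshold, ARID1B was the only member called in both isoforms, since CREBBP passed it in isoform 7 only.

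Both genes were also divided by position. In the final 10% of the CREBBP span there were 25 (isoform 1) and 40 (isoform 7) wild-type sites and 50 and 17 I304N sites, and in the rest of the span 31 and 42, and 51 and 16. The isoform 1 ratio was 1.84 (1.12 to 3.11) in the final 10% and 1.52 (0.952 to 2.45) before it, and the isoform 7 ratio was 0.376 (0.200 to 0.679) and 0.337 (0.177 to 0.613). In ARID1B the counts were 9 and 24 for wild type and 27 and 4 for I304N in the final 10% of the span, and 4 and 12, and 12 and 6, before it. For isoform 1 the ARID1B ratio came to 2.77 (1.26 to 6.68) in the final 10% and 2.77 (0.838 to 11.8) before it, and for isoform 7 to 0.148 (0.0372 to 0.430) and 0.443 (0.136 to 1.27). All these ratios had the same side of 1 in both parts of a gene, but before the final 10% only the CREBBP ratio in isoform 7 had an interval that did not hold 1. The CREBBP value in isoform 1 depended on how sites were counted. Its log2 ratio was 0.72 for single sites and 0.18 when sites within 50 nt were joined, and in isoform 7 it was -1.46 and -0.95.

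**Figure D3:**
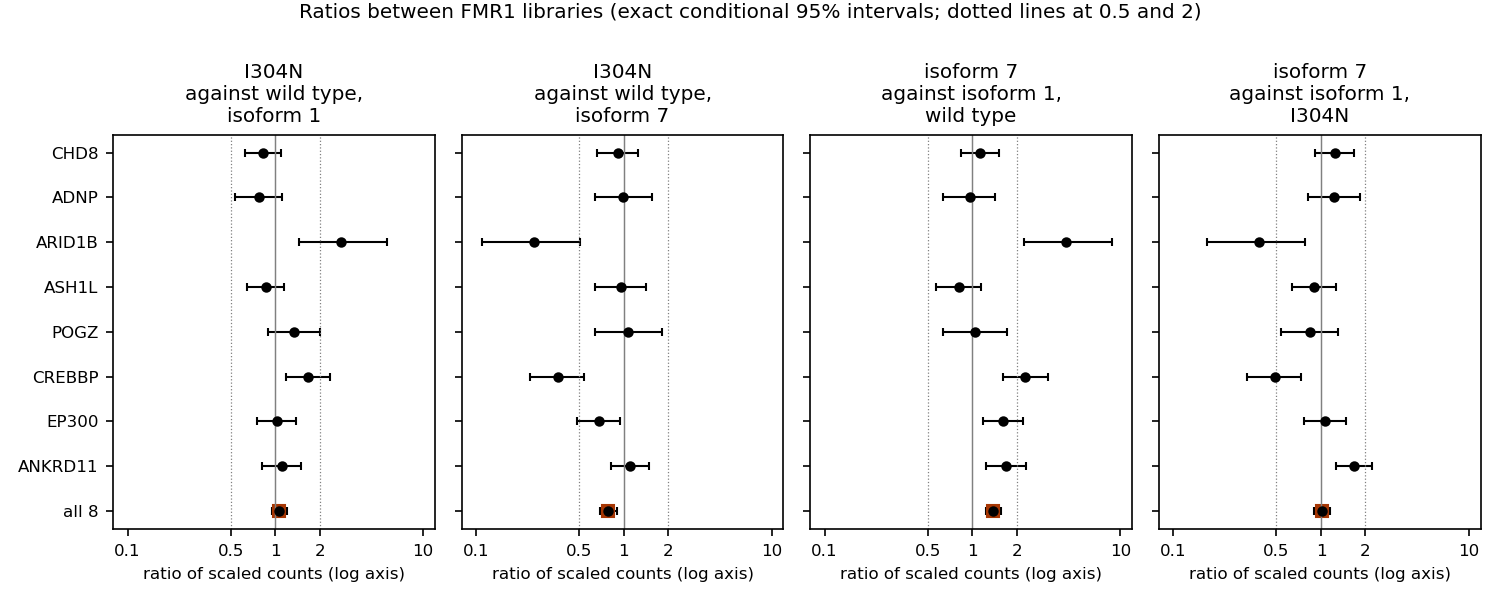
Ratios of scaled counts (horizontal log axis) for each gene and the 8 genes together in the 4 comparisons among FMR1 libraries, with exact 95% intervals of counting error and a line at a ratio of 1. ARID1B and CREBBP lie on the right of 1 for I304N in isoform 1 and for isoform 7 in wild type, and on the left for I304N in isoform 7 and for isoform 7 in I304N.

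Isoforms 1 and 7 differ by alternative splicing of the FMR1 message. Between the wild-type libraries, isoform 7 had more sites in ARID1B (ratio 4.30, 2.23 to 8.84), CREBBP (2.27, 1.60 to 3.25), ANKRD11 (1.69, 1.23 to 2.31) and EP300 (1.61, 1.18 to 2.19). CHD8 (1.13, 0.838 to 1.51), POGZ (1.05), ADNP (0.959) and ASH1L (0.808, 0.566 to 1.14) had intervals that held 1. The 8 genes together had a ratio of 1.39 (1.23 to 1.57). At 2-fold, 2 of 8 were higher and 0 lower, against 21.3% of windows higher and 22.4% lower, and 10.5% higher and 24% lower among the denser windows. The members' median was 0.42 on the log2 scale, that of the windows 0.04 and that of the denser windows -0.24. With median-ratio scaling (a shift of 0.60) all 8 ratios were above 1, so the values of ADNP and ASH1L changed side. The genes past 2-fold also depended on the unit counted: with sites joined within 50 nt they were ADNP (log2 1.51) and ARID1B (1.48), and CREBBP had 0.75. By covered nucleotides ADNP had -0.82.

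Between the mutant libraries, isoform 7 had fewer sites than isoform 1 in ARID1B (ratio 0.382, 0.170 to 0.780) and CREBBP (0.487, 0.319 to 0.728). ANKRD11 remained higher in isoform 7 (1.68, 1.26 to 2.23), at nearly the same ratio as in wild type. The other 5 intervals held 1, and the 8 genes together had a ratio of 1.02 (0.903 to 1.16). At 2-fold, 2 of 8 were lower and 0 higher, against 16.3% of windows lower and 5.5% higher. Among the denser windows 1.47% were lower and 5.56% higher. These shares cannot be set directly beside the 2 genes, which were counted over whole spans. The densest 50 kb window of ARID1B held 24 sites of I304N isoform 1 and 4 of isoform 7, and that of CREBBP 52 and 18. Whether those windows pass 2-fold was not computed. The median log2 ratio was -0.03 in the members, -0.06 over the windows and 0.32 over the denser windows. Median-ratio scaling added 0.26, which left CREBBP at -0.77, short of the 2-fold threshold, and put 6 in place of 4 genes above 1. The comparisons of isoforms and of I304N share libraries, so these values are not independent of those above.

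Part of ANKRD11 differed more than its total. Ratios inside and outside the main run were computed for ANKRD11 and ASH1L only. The runs were defined on the pooled, unscaled sites of the same libraries after the data were seen, and the intervals do not allow for that choice. The main run held 67 of 81 wild-type isoform 1 sites (82.7%), 66 of 88 for isoform 7 (75%), 66 of 97 I304N isoform 1 sites (68.0%) and 62 of 109 for its isoform 7 (56.9%, 47.0% to 66.3%). Outside the run, I304N had more sites in both isoforms, with 31 against 14 in isoform 1 (ratio 2.04, 1.05 to 4.15) and 47 against 22 in isoform 7 (1.89, 1.12 to 3.30). Within the run both ratios were below 1 with intervals that held it, at 0.908 (0.637 to 1.30) and 0.832 (0.579 to 1.19). In FXR2, 20 of 22 ANKRD11 sites lay in the run (90.9%, 70.8% to 98.9%), and in FXR1 all 5 did.

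The ASH1L run differed between the wild-type isoforms. It held 49 of 100 sites in isoform 1 (49%, 38.9% to 59.2%) and 12 of 52 in isoform 7 (23.1%, 12.5% to 36.8%). The ratio of isoform 7 to isoform 1 was 0.380 (0.184 to 0.726) in the run and 1.22 (0.785 to 1.88) in the rest of the span. Wild-type isoform 1 gave the most sites (49 of 146) to the pooled count that defined this run. The ratio is therefore not independent of that choice, and its interval does not allow for it. With I304N the shares were 37.6% in isoform 1 and 41.1% in isoform 7, and the ratio in the run was 0.980 (0.553 to 1.71).

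ADNP differed at its 3′ end. The last 2 kb of the span (chromosome 20, 49505455 to 49507454) held 27 sites of wild-type FMR1 as isoform 1 but 4 as isoform 7, and 6 and 2 sites of the respective I304N proteins. I304N against wild type in isoform 1 gave a ratio of 0.205 (0.0692 to 0.507) there and 1.15 (0.745 to 1.77) in the rest of the span. Isoform 7 against isoform 1 in wild type gave 0.230 (0.0585 to 0.660) there and 1.44 (0.901 to 2.29) in the rest. Pooled over the 8 genes, the last 2 kb held 11.3% of the wild-type isoform 1 sites (8.77% to 14.2%), and 7.33% when ADNP was left out. Joined within 50 nt, the 68 ADNP sites of wild-type isoform 1 formed 10 regions. The 42 to 57 sites of the other FMR1 libraries formed 19 to 25. Such joining turned the ADNP log2 ratio for I304N in isoform 1 from -0.36 to 0.70.

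FXR1 and FXR2 were compared with each wild-type FMR1 library, and the comparisons share those libraries. Against wild-type isoform 1, FXR1 had ratios from 0.314 (0.00778 to 1.85) for POGZ to 1.79 (0.785 to 3.60) for ADNP, and all 8 intervals held 1. By the 2-fold threshold 3 genes were lower (CHD8, POGZ and CREBBP) and 0 higher, where 46.5% of windows were lower and 31.5% higher, and 16.9% and 26.8% of the denser windows. FXR1 had 1 to 10 sites in each gene, which makes these calls weak. Against wild-type isoform 7, CHD8 (0.318, 0.0644 to 0.964) and CREBBP (0.212, 0.0253 to 0.792) were lower, and 5 genes in all passed 2-fold in that direction with 0 higher, beside 46.7% of windows lower and 38.3% higher and 22.2% and 47.1% of the denser windows. Over the 8 genes the FXR1 ratio was 0.895 (0.623 to 1.25) to isoform 1 and 0.645 (0.449 to 0.902) to isoform 7. The members' median log2 ratio against isoform 1 was -0.16, beside -0.57 over the windows and 0.28 over the denser ones. Against isoform 7 it was -1.31, beside -0.31 over the windows and 0.85 over the denser ones. With median-ratio scaling all 8 ratios to isoform 7 were below 1, so those of ADNP and ASH1L turned.

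FXR2, with 190 sites, was measured more precisely. Against wild-type isoform 1 it was higher in CREBBP (1.89, 1.17 to 2.999) and ADNP (1.77, 1.13 to 2.70), and the other 6 intervals held 1. None of the 8 genes passed 2-fold in either direction, where 14.1% of windows were higher and 23.2% lower, and 11.3% in each direction among the denser windows. When covered nucleotides were counted in place of sites, the ADNP log2 ratio to isoform 1 turned from 0.81 to -0.10, and when sites within 50 nt were joined it became 2.52, past the 2-fold threshold. Against wild-type isoform 7, FXR2 was higher in ADNP (1.84, 1.14 to 2.96) and lower in ARID1B (0.126, 0.0147 to 0.491, 2 against 36 sites) and ANKRD11 (0.568, 0.339 to 0.915). At 2-fold, 1 gene was lower (ARID1B) and 0 higher, against 23.6% of windows lower and 20.5% higher and 11.1% and 26.9% of the denser windows. The 8 genes together had an FXR2 ratio of 1.20 (1.01 to 1.42) to isoform 1 and 0.866 (0.729 to 1.03) to isoform 7. Their median log2 ratio was 0.10 against isoform 1, near that of the windows (-0.05) and the denser windows (0.09), and -0.25 against isoform 7, where the windows had 0.14 and the denser windows 0.34.

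Between the paralogs, FXR1 against FXR2 gave a ratio of 0.746 (0.509 to 1.06) over the 8 genes. CHD8 (3 and 24 sites), POGZ (1 and 12) and CREBBP (2 and 30) passed 2-fold lower and 0 genes higher, with intervals that held 1, beside 39% of windows lower and 32.9% higher and 17.6% and 21.6% of the denser windows. ADNP had nearly the same scaled count in both, with a ratio of 1.01 (0.427 to 2.16). The members' median log2 ratio was -0.36, beside -0.06 over the windows and 0.25 over the denser ones.

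**Figure D4:**
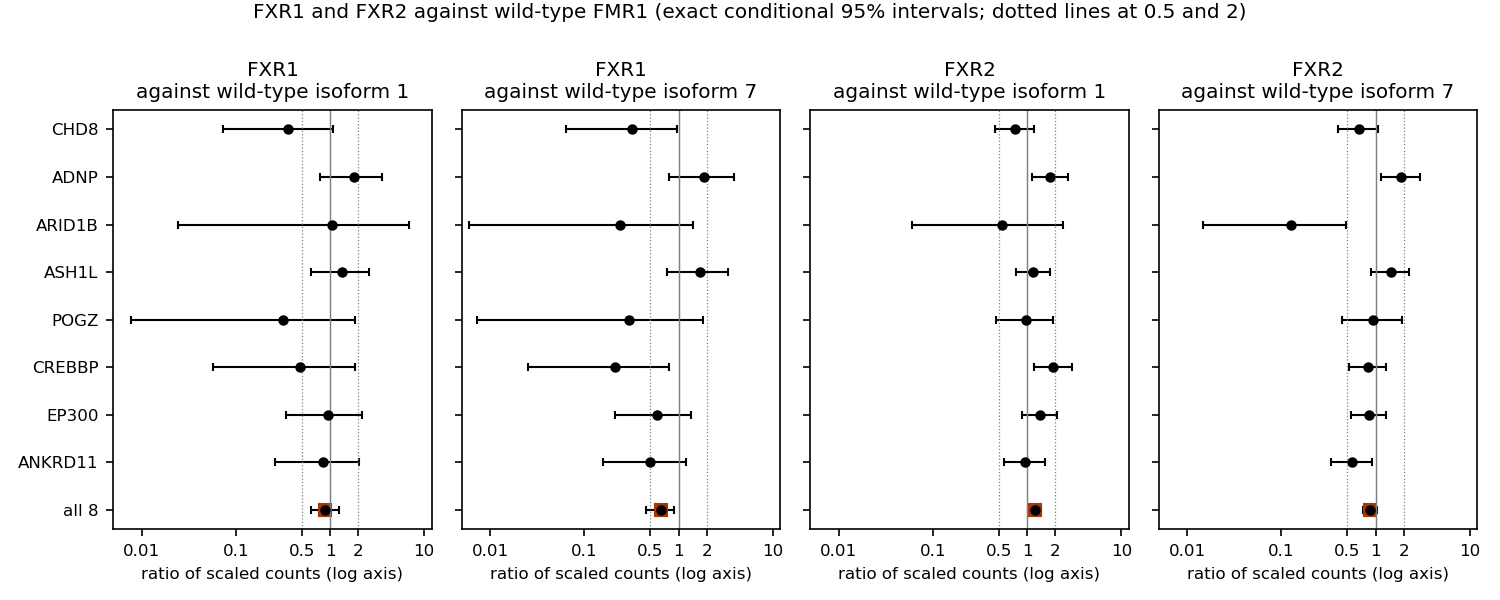
Ratios of scaled counts (horizontal log axis) for FXR1 and FXR2 against each wild-type FMR1 library, for each gene and the 8 together, with exact 95% intervals of counting error. FXR1 intervals are wide because each gene had 1 to 10 sites, and ADNP lies on the right of 1 for FXR2 against both FMR1 libraries.

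Most FXR sites in these transcripts touched an FMR1 site. A site of at least 1 of the 4 FMR1 libraries overlapped 35 of the 37 sites bound by FXR1 (94.6%, 81.8% to 99.3%) and 173 of the 190 bound by FXR2 (91.1%, 86.1% to 94.7%). Over the rest of the lists the shares were 74.5% for FXR1 and 75.7% for FXR2, and in other dense windows 88.4% and 88.1%, which lie within the intervals of the 8 genes. All 34 FXR2 sites of ADNP and all 22 of ANKRD11 did so, as did 24 of 30 in CREBBP and 8 of 12 in POGZ. Regions bound by FXR proteins alone numbered 17 (2.09% of the regions in these genes, against 4.03% of all regions elsewhere, dense or not). Of these, 6 were in CREBBP, 4 in POGZ, 3 in ASH1L and 2 each in CHD8 and EP300. Of the 6 in CREBBP, 5 lay near the 3′ end of the span, between 3775308 and 3777141 of chromosome 16. A POGZ region at 151428288 to 151428312 of chromosome 1 lay 1254 nt from the nearest FMR1 site, and the other 16 lay within 280 nt of such a site.

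Sites in these genes recurred between libraries more often than sites elsewhere in the genome, and less clearly so beside other dense stretches. Of the wild-type isoform 1 sites in the 8 genes, 74.4% (70.6% to 78.0%) shared at least 1 nt and the strand with an I304N isoform 1 site, against 44.4% over the rest of the list and 51.9% of 56640 sites in other dense windows. Of the I304N isoform 7 sites, 89.6% (86.3% to 92.3%) overlapped an I304N isoform 1 site, against 75.8% and 83.5%. FXR2 sites overlapped wild-type isoform 7 sites in 57.9% (50.5% to 65.0%), against 31.9% and 40.9%. Over the 30 ordered pairs of libraries the genes' share was above the rest of the list in 22, with overlapping intervals in 8. Beside the dense windows it was above in 11, below in 2 and not apart in 17. The share was below for wild-type isoform 7 sites on FXR1 (1.60% against 3.95%) and FXR2 sites on FXR1 (17.9% against 24.96%).

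**Figure D5:**
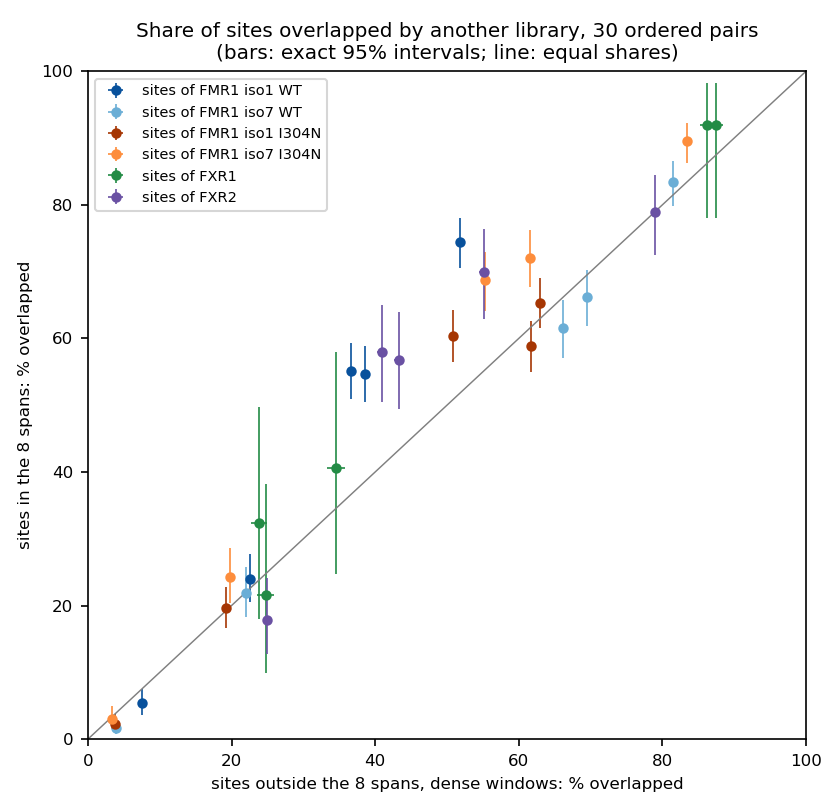
Percent of sites overlapped by a site of another library, in the 8 genes (vertical axis) and in other dense 50 kb windows (horizontal axis), with 1 point for each of 30 ordered pairs of libraries, coloured by the library whose sites were counted, and exact 95% intervals as bars. Points of wild-type isoform 1 and I304N isoform 7 on the other FMR1 libraries lie above the line of equal shares.

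Joining touching sites of all libraries gave 812 regions in the 8 genes. Shares of regions are set against all regions elsewhere, and shares in other dense stretches were not computed. All 4 FMR1 libraries had sites in 201 regions (24.8%, against 8.47% of 236622 regions elsewhere) where FXR1 and FXR2 were not both present. A site of FXR1 or of FXR2 could be among them. These regions numbered 45 in CHD8, 42 in ANKRD11 and 38 in EP300 but 3 of 59 in ARID1B. Both I304N libraries without a wild-type FMR1 site occurred in 29 regions (3.57%, against 8.33% elsewhere), and 13 of these were in ANKRD11. Regions of I304N isoform 7 alone numbered 30 (3.69%, against 6.82% elsewhere), of which 23 were in ANKRD11, where they made up 17.7% of 130 regions. Regions of wild-type isoform 1 alone numbered 94 (11.6%, against 21.8% elsewhere).

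All 6 libraries shared 13 regions (1.60%, against 0.604% of all regions elsewhere, dense or not). EP300 had 4, ADNP and ANKRD11 3 each, ASH1L 2 and CREBBP 1, and CHD8, ARID1B and POGZ had 0. The widest was in ADNP, 322 nt at 49509483 to 49509804 of chromosome 20. Others were 249 nt in EP300 (chromosome 22, 41572779 to 41573027), 145 nt in CREBBP (chromosome 16, 3781198 to 3781342), 135 nt in ANKRD11 (chromosome 16, 89351162 to 89351296) and 92 nt in ASH1L (chromosome 1, 155330104 to 155330195).

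FMR1 is known from work on these libraries to favour short elements of the forms ACTT or ACTG, and AGGA or TGGA. Both pairs were counted on the sense strand of each gene's longest protein-coding transcript, not in the sites themselves, whose sequences were not analysed here. Nearly every transcript of at least 1000 nt held each pair (99.99% and 100% of 18026 genes), with medians of 8.70 and 13.2 matches per kb. The members spread on both sides: 4 of 8 were above the median for ACTT or ACTG and 3 of 8 for AGGA or TGGA. ANKRD11 (19.97 per kb, above 94.7% of genes) and CHD8 (18.7, above 91.3%) were rich in AGGA or TGGA, and ADNP (10.7, above 81.6%) was richest of the members in ACTT or ACTG. CREBBP had 6.76 and 10.3 per kb and ARID1B 5.46 and 11.5, and EP300 had 8.45 and 11.8, so that these 3 genes were below both medians.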

How the data were processed

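One site list per library was analysed, as deposited by the authors. The submitters' processing notes name Bowtie 0.12.7 and the hg19 build. How sites were called from the reads, with which thresholds, and whether runs were pooled is not given in the sources used here. The score column is a repeat flag, 1000 outside and 0 inside repeats, per the file headers. It is not a binding strength, and sites carry no read number.

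Sites were assigned by midpoint and strand to hg19 spans, scaled to 100000 sites of their list, and compared in 9 pairs of libraries. Counts have exact Poisson intervals, shares exact Clopper-Pearson intervals and ratios exact conditional intervals, all at 95% and for counting error only. A call is a ratio of at least 2 with a pseudocount of 1. Its background is the same call over strand-specific 50 kb windows, whereas members were counted over their whole spans, so the 2 are unlike units. The call was tested on simulated counts with counting error only, for windows with a mean of at least 20 scaled sites. Sparser windows, which the main background includes, were not simulated. The members and lists were chosen with earlier results of these data known, and all 8 members are named. Alternatives changed the scaling, the pseudocount, the unit counted (covered nucleotides, or sites joined within 50 nt), the site width (at most 40 nt), the assignment by overlap, and left out repeat sites, mitochondrial sites or CHD8. The denser windows (a mean of at least 20 scaled sites), main runs, last 2 kb and ratio of ratios were added after seeing the data. Transcript and exon lengths came from GENCODE release 29 (GRCh38) without coordinates. Positions of sites in exons, a wider list of chromatin regulators and site sequences were not analysed here, since no hg19 annotation or genome was used. Python 3.11.15, pandas 2.3.3, numpy 2.4.6, scipy 1.17.1 and matplotlib 3.10.9 were used.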

Additional observations from a re-analysis of the deposited data

Results flagged for a closer look

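The ratio of I304N to wild type differed between the FMR1 isoform 1 and isoform 7 libraries for ARID1B. In isoform 7 it was 0.0889 times that in isoform 1 (95% interval 0.0347 to 0.228). The mutant had more sites in isoform 1 and fewer in isoform 7. CREBBP differed in the same way, by 0.214 times (0.127 to 0.360). The intervals are normal approximations for counting error between 4 single libraries, and differences between libraries of the same kind were not tested.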

How the results depend on the processing

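No paired analysis was possible because each protein has 1 library and the labels give no replicate numbers, and for the same reason no library could be left out within a group. Of 252 sums and counts over the 8 genes recomputed under the alternatives, 221 stayed within their counting interval or 1.5 times the count and 31 moved. The sums for I304N in isoform 1, isoform 7 in I304N, FXR1 against isoform 1 and FXR2 against isoform 7, whose intervals held 1, crossed 1 under at least 1 alternative. Leaving out repeat sites, mitochondrial sites or CHD8, and assigning sites by any overlap, moved none of them. Scaling by the median ratio over windows gave ratios over the 8 genes of 1.65 for I304N in isoform 1 (3 genes 2-fold higher), 0.963 for I304N in isoform 7, 2.10 for isoform 7 in wild type (4 higher), 1.22 for isoform 7 in I304N (1 lower), 0.316 for FXR1 and 0.535 for FXR2 (3 lower) against wild-type isoform 7. Its log2 shifts were -0.43 for FXR1 and -0.10 for FXR2 against wild-type isoform 1, -1.03 and -0.69 against isoform 7 and -0.34 between FXR1 and FXR2. Counting covered nucleotides gave 2 genes higher for I304N in isoform 1, 1 higher for FXR2 against isoform 1, and a ratio of 0.717 with 2 lower for FXR2 against isoform 7. ADNP in FXR2 against isoform 1 reversed to a log2 ratio of -0.095 there. Joining sites within 50 nt gave ratios of 0.939 for I304N in isoform 1, 1.16 for isoform 7 in I304N and 1.03 for FXR2 against isoform 7. It left 1 gene lower for I304N in isoform 7 and for isoform 7 in I304N, 1 higher in each FXR comparison and 1 lower for FXR2 against isoform 1. Keeping sites of at most 40 nt gave 1 higher for isoform 7 in wild type, 1 lower for isoform 7 in I304N, and 1 higher for FXR1 against both FMR1 isoforms and for FXR2 against isoform 1. A pseudocount of 5 gave 1 lower for isoform 7 in I304N. The cause of these moves was not tested. Over all alternatives run, the ratio of ratios stayed between 0.0704 and 0.156 for ARID1B and between 0.1196 and 0.451 for CREBBP. FXR1, with 37 sites in the 8 genes, limits every comparison it enters.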
